A study of Homo sapiens with 3 samples.

Results

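The genes of the E2F transcription factors, their RB family repressors and the SERTAD cofactors were examined in KYSE140, an established cell line from a human squamous carcinoma of the oesophagus, after cisplatin, a platinum drug that crosslinks DNA. The 10 genes were E2F1, E2F2, E2F3, E2F7, E2F8, TFDP1, RB1, RBL1, SERTAD1 and SERTAD2. They were chosen by name, and every Affymetrix probe set (the group of short probes summarised to 1 value) that the platform annotation gives to 1 of them alone was kept, which made 22 of the 54613 probe sets and 10 of the 19775 genes measured. Cells had been exposed to cisplatin at a labelled 10 mM for 12 h (2 arrays, titled B1 and B2) or left untreated (1 array), all grown in RPMI medium with serum and antibiotics. Cell culture work with cisplatin mostly uses micromolar doses, which puts the labelled unit in doubt. Whether B1 and B2 were separate cultures is not stated in the labels, so p-values describe the spread between these arrays alone, which may be technical, and the untreated group is a single array.

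E2F proteins bind DNA, most of them as dimers with a DP protein such as TFDP1, and drive the genes of S phase entry. RB family proteins (RB1, and RBL1, also called p107) bind E2Fs and repress their targets until cyclin-dependent kinases phosphorylate them. E2F1, E2F2 and E2F3 are the activating E2Fs, E2F7 and E2F8 are atypical repressive E2Fs that bind DNA without a DP partner, and SERTAD1 and SERTAD2 (TRIP-Br1 and TRIP-Br2) are cofactors of E2F with DP, SERTAD1 also being a CDK4-binding protein. The pathway is a common target of alterations in squamous carcinomas.

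Intensities had array medians of 35.9 (B1), 35.6 (B2) and 34.8 (untreated), and detection calls were not used here. B2 stood apart from the other arrays: log2 differences over all genes had an SD of 0.56 for B2 minus B1, 0.60 for B2 minus untreated and 0.33 for B1 minus untreated. Each value is therefore given for B1 and B2 separately. Of the 7 measured squamous and epithelial markers, 2 were higher and 2 lower in both cisplatin arrays. KRT5 had intensities of 1345 in B1, 4251 in B2 and 1217 in untreated cells, KRT14 of 276, 2372 and 278, and DSG3 of 321, 790.1 and 375, each high in B2 alone. SOX2 was instead low in B1 alone, with 2416 in B1, 5308 in B2 and 5656 in untreated cells. PERP (6591, 9316 and 6511), CDH1 (1965, 2271 and 2186) and EPCAM (4503, 4190 and 4545) were bright on all 3 arrays, while TP63, KRT6A and KRT17 had no probe set annotated to them alone. Of the 14 measured markers of fibroblasts, leukocytes and endothelium, COL1A1 reached 159 in B2 and every other one stayed at or below 55.1 on all 3 arrays.

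The 10 genes differed from untreated in both directions. By the brightest probe set of each gene, SERTAD1 was 3.44-fold, E2F1 1.49-fold, E2F2 1.24-fold and E2F8 1.15-fold higher with cisplatin. E2F3, RBL1, TFDP1, RB1 and SERTAD2 were lower in both cisplatin arrays, by 1.09-fold to 1.29-fold on average. SERTAD2 was barely lower in B1 (log2 difference -0.004). The size for RBL1 depended on the probe set, from a mean of -0.31 (1559307_s_at) to -1.26 (205296_at). TFDP1 was lower in both arrays by 1 of its 3 probe sets. Taking the brightest probe set of each gene, 4 of the 10 genes were higher in both cisplatin arrays, where 39.2% of all genes were, and 5 were lower in both, where 27.4% of all genes were. By a size rule of at least 2-fold in the same direction in both cisplatin arrays, 1 of the 10 was higher (0.142% of all genes) and 0 were lower (0.678% of all genes). Their median log2 difference from untreated was 0.10 in B1 and -0.14 in B2, against 0.03 and 0.06 for all genes. With limma and Benjamini-Hochberg adjustment 0 of the 10 genes and 0 of the 19775 genes (0%) passed, and 1 of the 10, SERTAD1, had an unadjusted p under 0.05, as did 565 of all genes (2.86%). In bulk RNA, fewer cells of a kind and less RNA per cell cannot be told apart.

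**Figure D1:**
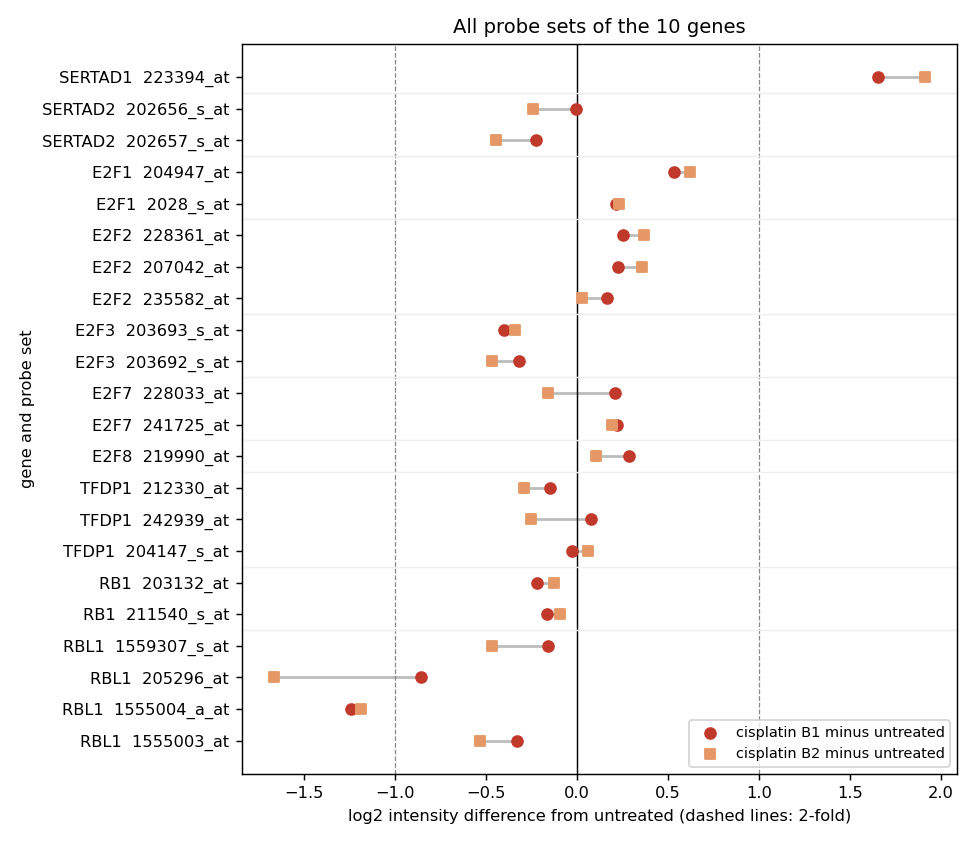
Log2 intensity difference from the untreated array (x axis) for the 22 probe sets of the 10 genes (rows), with circles for cisplatin B1 and squares for cisplatin B2. SERTAD1 lies beyond the 2-fold line on the right in both arrays, 1 RBL1 probe set lies beyond the 2-fold line on the left in both, and E2F1 and E2F2 lie opposite E2F3.

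The plot of all 22 probe sets shows where probe sets of one gene went together. Of the 22 probe sets, 8 were higher in both cisplatin arrays (39.3% of all probe sets) and 11 were lower in both (28.3%). In the limma fit over all probe sets, 3 of the 22 had an unadjusted p under 0.05, 1 each of SERTAD1, E2F1 and RBL1 (3.96% of all probe sets). The E2F1 probe set, 204947_at, had an unadjusted p of 0.046 in that fit and of 0.055 in the limma fit over genes. All probe sets of E2F1, E2F2, E2F8 and SERTAD1 were higher in both arrays. All those of E2F3, RB1, RBL1 and SERTAD2 were lower in both, 1 SERTAD2 probe set barely so in B1 (-0.004). Those of E2F7 and TFDP1 differed in sign between arrays or between probe sets. By the size rule 1 probe set was higher, that of SERTAD1 (0.233% of all probe sets), and 1 was lower, an RBL1 probe set (0.659%).

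SERTAD1, the CDK4-binding E2F cofactor (chr19:40421589-40425992, GRCh38.p14), was measured by a single probe set, 223394_at. Its intensity was 548 in B1 and 656 in B2, against 174 in untreated cells. Both cisplatin arrays were far above untreated. The log2 difference was 1.65 in B1 and 1.91 in B2, a mean of 1.78 ± 0.18 (SD of the 2 cisplatin arrays; limma SE 0.22), which ranked 10 from the top of the 19775 genes (limma unadjusted p = 0.0041, adjusted p = 0.97). SERTAD2, a related cofactor on another chromosome (chr2:64631621-64653913), had no such difference. Its brighter probe set 202656_s_at read 738 in B1 and 626 in B2, against 740.5 in untreated cells, so that B1 matched untreated and only B2 was low (log2 differences -0.00 and -0.24). The other, 202657_s_at, read 622 and 535, against 728 (-0.23 and -0.45).

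The gene whose pair of differences lay nearest to that of SERTAD1, of those whose log2 values averaged 6 or more, was PMAIP1, a pro-apoptotic BH3-only gene, at 1.69 in B1 and 1.82 in B2 (Euclidean distance 0.10 over the 2 differences, which share the untreated array). RHOB, a small GTPase gene, followed at 1.44 and 1.88 (distance 0.22), but at 0.35 and 0.55 over its 5 probe sets. OVOL1, an epithelial transcription factor gene, came next at 1.43 and 1.64 (distance 0.36), or 0.90 and 1.12 over both its probe sets. SERTAD1 had 99.95% of all genes below it in mean log2 difference.

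E2F1, the activating E2F also linked to apoptosis (chr20:33675477-33686385), had intensities of 292 in B1 and 311 in B2, against 202 in untreated cells, by its brighter probe set 204947_at. The cisplatin arrays were close to each other and both above untreated. The log2 differences were 0.53 and 0.62, a mean of 0.58 ± 0.06 (SD, 2 arrays; limma SE 0.19; unadjusted p = 0.055; adjusted p = 0.97). Its second probe set, 2028_s_at, gave a smaller difference of 0.21 and 0.23, with intensities of 96.7 and 98.1, against 83.5. E2F2, another activating E2F (chr1:23505212-23531233), read 256 in B1 and 277 in B2, against 214 in untreated cells (probe set 228361_at; log2 differences 0.25 and 0.37; limma SE 0.19; adjusted p = 0.97). Its 2 dimmer probe sets were also higher in both arrays, at 0.22 and 0.36 for 207042_at and 0.16 and 0.03 for 235582_at.

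E2F3, the third activating E2F (chr6:20401879-20493714), lay on the other side of 0. Its probe set 203693_s_at read 386 in B1 and 403 in B2, against 509.9 in untreated cells, and 203692_s_at read 285 and 257, against 356. Both cisplatin arrays were below untreated by both probe sets. The log2 differences were -0.40 and -0.34 for the first (mean -0.37 ± 0.05, SD of 2 arrays; limma SE 0.19; unadjusted p = 0.14; adjusted p = 0.97) and -0.32 and -0.47 for the second. Genes most like it by the same distance were SMARCC1, a chromatin remodelling subunit gene (-0.41 and -0.34), PRPSAP1 (-0.41 and -0.34) and STX18, a syntaxin gene (-0.41 and -0.36). E2F3 had 12.1% of all genes below it, so differences of its size were common.

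**Figure D2:**
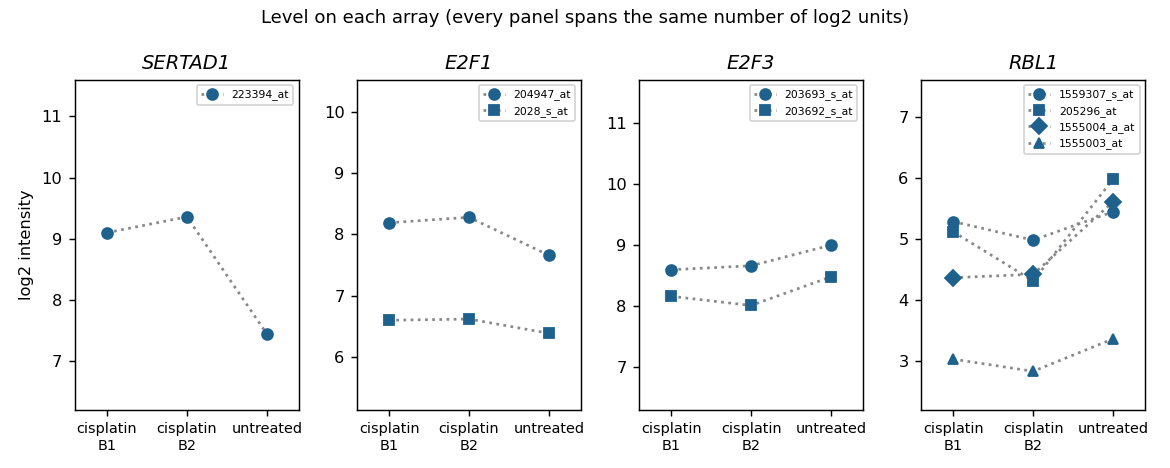
Log2 intensity (y axis, the same number of log2 units in every panel) of SERTAD1, E2F1, E2F3 and RBL1 on the cisplatin B1, cisplatin B2 and untreated arrays (x axis), with 1 line for each probe set. Both cisplatin arrays lie above untreated for SERTAD1 and E2F1, and below untreated for E2F3 and RBL1.

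The atypical E2F genes differed little from untreated. E2F7 (chr12:77021251-77065569) read 1002 in B1 and 778 in B2, against 868 in untreated cells (228033_at), so the untreated value lay between the cisplatin arrays (log2 differences 0.21 and -0.16). Its dim probe set 241725_at was at 0.22 and 0.19. E2F8 (chr11:19224063-19241655), with the single probe set 219990_at, read 442 and 390.4, against 363 (0.29 and 0.11; limma adjusted p = 0.97). TFDP1, the DP partner (chr13:113584688-113641473), read 2942 in B1 and 2668 in B2, against 3265 in untreated cells, by its brightest probe set 212330_at (-0.15 and -0.29). Its other probe sets stood at 0.08 and -0.25 (242939_at) and at -0.03 and 0.06 (204147_s_at), so TFDP1 had no direction shared by its probe sets.

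RB1, the retinoblastoma gene (chr13:48303751-48481890), was slightly lower in both cisplatin arrays. It read 488 in B1 and 521 in B2, against 569 in untreated cells (203132_at; log2 differences -0.22 and -0.13), and 83.9 and 88.3, against 94.2, by 211540_s_at (-0.17 and -0.09). RBL1, which encodes the pocket protein p107 (chr20:36996349-37095997), was lower in both arrays by all 4 of its probe sets, which disagreed on the size.

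The brightest RBL1 probe set over the 3 arrays, 1559307_s_at, read 39.1 in B1 and 31.7 in B2, against 43.7 in untreated cells (-0.16 and -0.46). Probe set 205296_at, the highest of the 4 in untreated cells, read 34.8 and 20.0, against 63.2 (-0.86 and -1.66), and 1555004_a_at read 20.7 and 21.5, against 48.9 (-1.24 and -1.18; limma SE 0.18; unadjusted p = 0.0053; adjusted p = 0.95 over all probe sets). The fourth, 1555003_at, was dim on every array, at 8.21 and 7.15, against 10.3. The mean log2 difference of RBL1 was -0.31 by the brightest probe set and -0.80 over all 4. These intensities lay near or below the array medians in the cisplatin arrays, so how far the differences reflect dim signal was not tested.

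Promoter sequences are shown for 4 of these genes because 3 of them carry the same pair of E2F-type sequence matches in the same order just before the gene start, while their transcripts differed in opposite directions, and the fourth, SERTAD1, had the largest difference of the 10 genes. They are the 250 bases before the gene start on the gene's own strand, 5′ to 3′, from RefSeq on GRCh38.p14, with capitals marking the letters TTTCGCG and TTGGCGC (searched on both strands, chosen after the sequences and the expression values had been seen). The windows lie at chr20:33686386-33686635 (E2F1, minus strand), chr6:20401629-20401878 (E2F3, plus strand), chr20:37095998-37096247 (RBL1, minus strand) and chr19:40425993-40426242 (SERTAD1, minus strand).
E2F1: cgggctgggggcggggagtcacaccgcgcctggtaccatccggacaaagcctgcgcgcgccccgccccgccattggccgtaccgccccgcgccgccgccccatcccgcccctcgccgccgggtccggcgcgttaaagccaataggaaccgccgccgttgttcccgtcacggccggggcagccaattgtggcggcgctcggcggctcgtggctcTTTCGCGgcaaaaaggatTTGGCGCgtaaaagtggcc
E2F3: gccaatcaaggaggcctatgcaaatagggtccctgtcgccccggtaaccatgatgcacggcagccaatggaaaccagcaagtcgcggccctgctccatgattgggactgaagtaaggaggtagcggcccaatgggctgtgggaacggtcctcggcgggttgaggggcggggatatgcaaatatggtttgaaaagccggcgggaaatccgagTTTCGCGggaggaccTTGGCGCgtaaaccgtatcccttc
RBL1: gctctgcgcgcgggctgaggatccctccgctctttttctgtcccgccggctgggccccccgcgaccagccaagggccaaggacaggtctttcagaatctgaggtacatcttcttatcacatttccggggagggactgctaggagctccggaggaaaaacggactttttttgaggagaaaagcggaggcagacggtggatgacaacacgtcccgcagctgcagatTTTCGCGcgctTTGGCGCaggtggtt
SERTAD1: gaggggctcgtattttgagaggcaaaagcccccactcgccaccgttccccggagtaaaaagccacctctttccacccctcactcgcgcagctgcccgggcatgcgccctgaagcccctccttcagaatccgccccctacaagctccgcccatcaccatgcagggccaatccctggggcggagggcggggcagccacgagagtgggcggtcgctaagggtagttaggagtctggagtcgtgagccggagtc

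In E2F1, the higher gene, TTTCGCG began 37 bases and TTGGCGC 19 bases before the start. In E2F3, one of the lower genes, they began 39 and 24 bases before it, and in RBL1, the other lower gene, 26 and 15 bases before it. E2F2, which was higher, held both as well, at 57 and 41 bases. None of these matches overlapped another. A second E2F3 window, before a start 1735 bases from the annotated gene start, held neither set of letters. Which E2F3 start was used in these cells was not tested. Windows within 65 bases of the annotated gene start were found for 8 of the 10 genes, and E2F8 and RB1 are not described here. Of the 8, 5 held TTTCGCG, 5 held TTGGCGC and 4 held both. The shares among all 35116 promoter windows of the same length were 1.1%, 2.56% and 0.094%. Those windows were not limited by distance from the annotated gene start. The letters were chosen after the sequences of these genes had been seen, so the shares do not test enrichment. E2F7 held TTGGCGC and TFDP1 held TTTCGCG, each on the opposite strand, and neither set of letters was in the windows of SERTAD1 and SERTAD2. The 4 genes with both matches included 2 that were higher and 2 that were lower in both cisplatin arrays. Whether the matches bear on the direction was not tested.

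Of 9 further E2F, DP, RB and SERTAD family genes, 1 was higher in both arrays (39.2% of all genes), 2 were lower in both (27.4%) and 6 differed in sign between B1 and B2 (33.3%). SERTAD3, a cofactor gene on chromosome 19 as is SERTAD1, read 77.3 in B1 and 183 in B2, against 84.5 in untreated cells, so only B2 was high (log2 differences -0.13 and 1.11). SERTAD4 read 999 and 330, against 827 (0.27 and -1.33), with B2 alone low. E2F6, a repressor that acts without RB proteins, was at 0.13 and 0.67.

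E2F5 was at -0.42 in B1 and 0.54 in B2, and TFDP2 at -0.39 and 0.32, each with the untreated value between the cisplatin arrays (-0.28 and 0.22, and -0.47 and 0.21, over all their probe sets). E2F4, the E2F that pairs with pocket proteins in resting cells, was at 0.07 and -0.15, RBL2 (p130) at -0.13 and -0.25, CDCA4 at -0.11 and 0.03, and TFDP3, which was dim, at -0.01 and -0.05. The gap between B1 and B2 had a median of 0.16 on the log2 scale in the 10 genes (0.07 to 0.36), 0.54 in these 9 (0.04 to 1.60) and 0.21 in all genes.

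**Figure D3:**
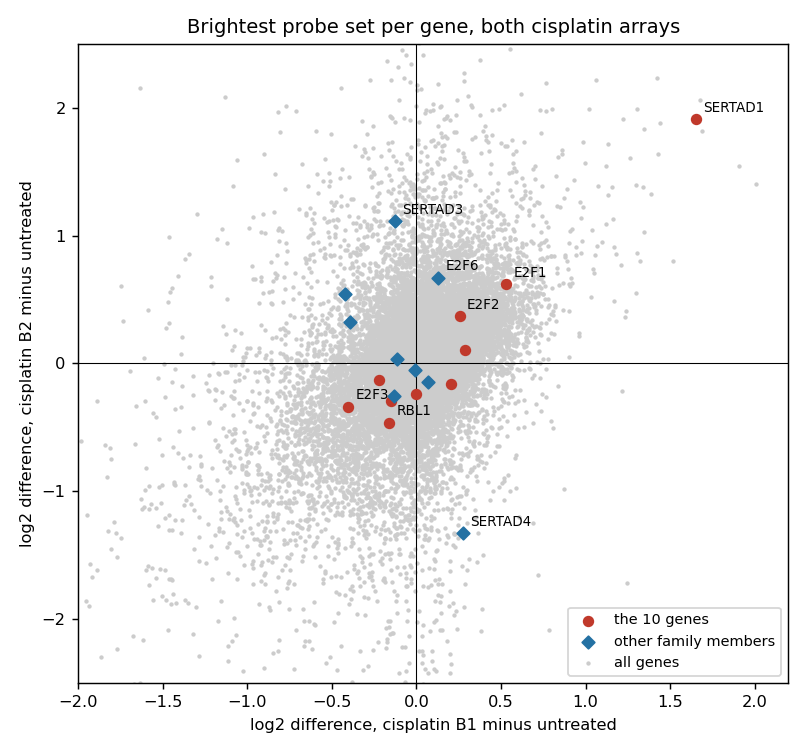
Log2 difference from untreated in cisplatin B1 (x axis) and cisplatin B2 (y axis) for the brightest probe set of each gene, with the 10 genes as red circles, other family members as blue diamonds and all genes as grey points (148 genes lie outside the axes). SERTAD1 sits at the upper right, E2F1 and E2F2 are above 0 on both axes, and SERTAD3 and SERTAD4 lie far from 0 on the B2 axis alone.

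Upstream of RB, the kinase and cyclin genes went both ways. CDK6, a cyclin D-dependent RB kinase gene, read 1030 in B1 and 1008 in B2, against 2148 in untreated cells, and both cisplatin arrays were low by the same amount (log2 differences -1.06 and -1.09; limma SE 0.19; unadjusted p = 0.0100; adjusted p = 0.97). Of the 7 CDK6 probe sets, 6 were lower and 1 was higher in both arrays (-0.97 and -0.99 over all 7). CCNE1, the cyclin E1 gene and a known E2F target, read 538 and 922, against 301 (0.84 and 1.62, or 0.38 and 0.82 over both its probe sets). CCND2 was at -0.23 and -0.89 and CDK2 at 0.19 and 0.73. Both arrays were higher for 4 of the 8 genes and lower for 2, near the shares of all genes (39.2% and 27.4%), and the list had a median difference of 0.04 in B1 and 0.28 in B2.

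Among 6 measured CDK inhibitor genes, 3 stood higher in both arrays, where 39.2% of all genes did, and 0 stood lower, where 27.4% did. Their median difference was 0.12 in B1 and 0.37 in B2. CDKN1A (p21) was at 1.02 and 1.99 and CDKN1C (p57) at 0.59 and 1.11, but at 0.16 and 0.56 over its 5 probe sets. CDKN2A (p16) was at 0.20 and -2.35, low in B2 alone (0.30 and -1.45 over its 3 probe sets), and CDKN2D (p19) at -0.09 and 0.32. CDKN2C had no probe set annotated to it alone, nor had ARID4A of the corepressor list that follows.

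Genes that act with the RB family on chromatin included some with large differences of one sign. Of 8 genes of the DREAM complex and its MYB and FOXM1 partners, which repress and then activate cell cycle genes, 1 was higher in both arrays (39.2% of all genes) and 5 were lower in both (27.4%), and the median difference was -0.14 in B1 and -0.11 in B2. LIN52 was at -0.52 and -0.60, MYBL1 at -0.14 and -2.11 (-0.04 and -0.78 over its 3 probe sets), LIN37 at -0.15 and 0.55 (-0.12 and 0.38 over both its probe sets) and MYBL2 at 0.28 and 0.39. One of the 8, LIN54, had an unadjusted limma p under 0.05, as did 2.86% of all genes, and is named after its values were seen (-0.63 and -0.87; adjusted p = 0.97). LIN54 was dim, at 24.8 in B1 and 20.9 in B2, against 38.3 in untreated cells. LIN9, another of the 5 lower genes, was dim as well, at -0.46 and -0.06 (-0.13 and 0.15 over its 3 probe sets). MYBL1 was lower in both arrays by 1 of its 3 probe sets. Of 6 RB corepressor genes, ARID4B, an RB-binding protein gene, read 273 in B1 and 197 in B2, against 632 in untreated cells (-1.21 and -1.68, but -0.57 and -0.79 over its 4 probe sets). SIN3A was at -0.74 and -0.89 (-0.41 and -0.50 over its 4 probe sets), and HDAC1 (-0.04 and 0.15) and RBBP7 (0.13 and 0.01) lay near 0.

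E2F target genes of DNA synthesis and S phase stayed close to the background of all genes. Of 27 measured targets 11 (40.7%) were higher in both arrays, where 39.2% of all genes were, and 6 (22.2%) were lower, where 27.4% were. Their median log2 difference was 0.07 in B1 and 0.01 in B2. CDC6, a replication licensing factor, read 563 in B1 and 592 in B2, against 351 in untreated cells (0.68 and 0.76; limma SE 0.19; unadjusted p = 0.031; adjusted p = 0.97), and its licensing partner CDT1 was at 0.30 and 0.77. POLA1, the catalytic subunit of DNA polymerase alpha, was at -0.26 and -1.13, and EZH2, a histone methyltransferase, at -0.13 and -0.52. In each of the 6 lists 0 genes passed the limma test in either direction.

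**Figure D4:**
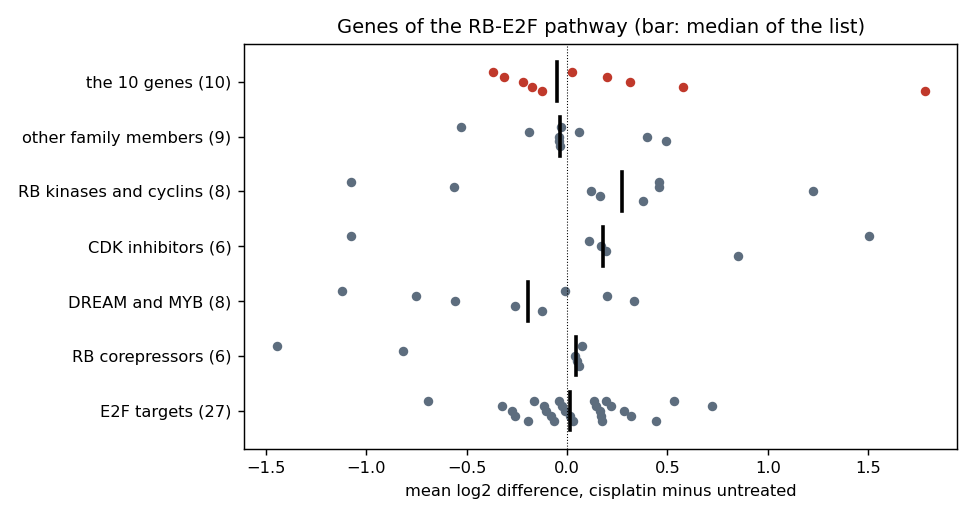
Mean log2 difference, cisplatin minus untreated (x axis), of every measured gene in the 10-gene group and in 6 lists of its pathway (rows, with the number of genes), and the median of each list as a bar. SERTAD1 stands alone at 1.78 in the top row, and the 27 E2F targets gather around a median of 0.02.

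By difference, the 10 genes were ordered broadly as by their length in the genome. Genomic span, the stretch of chromosome that the annotation gives to a gene, was 4.40 kb for SERTAD1, 10.9 kb for E2F1, 17.6 kb for E2F8 and 26.0 kb for E2F2, all higher in both arrays. It was 56.8 kb for TFDP1, 91.8 kb for E2F3, 99.7 kb for RBL1 and 178 kb for RB1, all lower in both by their brightest probe set. SERTAD2, at 22.3 kb, was lower although short, and E2F7, at 44.3 kb, lay between.

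The same trend ran through all genes whose log2 values averaged 6 or more, so these were cut by span into 10 classes of equal size and each of the 10 genes was set beside its class. E2F3 was at a mean of -0.37, where the median of its class was -0.32. RBL1, itself too dim to be among those genes, was at -0.31 by its brightest probe set and -0.80 over all 4, beside the same class. TFDP1 was at -0.22 by its brightest probe set and -0.10 over all 3, where the class median was -0.16. RB1 was at -0.17, nearer 0 than its class (-0.48), and 74.1% of the genes in that class were lower still. E2F1 (0.58) had 94.2% of its class below it, where the median was 0.10, and SERTAD1 (1.78) had 99.6%, where it was 0.13. SERTAD2 (-0.12) had 26.1% of its class below it. Lower genes of the pathway lists included long ones too, such as CDK6 (232 kb), ARID4B (161 kb) and POLA1 (303 kb). Their means were -1.075, -1.447 and -0.692, where the median of the longest class was -0.48. LIN52 (116.5 kb, -0.56) and SIN3A (86.4 kb, -0.82) fell in the class with a median of -0.32. MYBL1 (51.0 kb) and CCND2 (31.6 kb) were lower although shorter. The part of span in these differences was not tested.

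**Figure D5:**
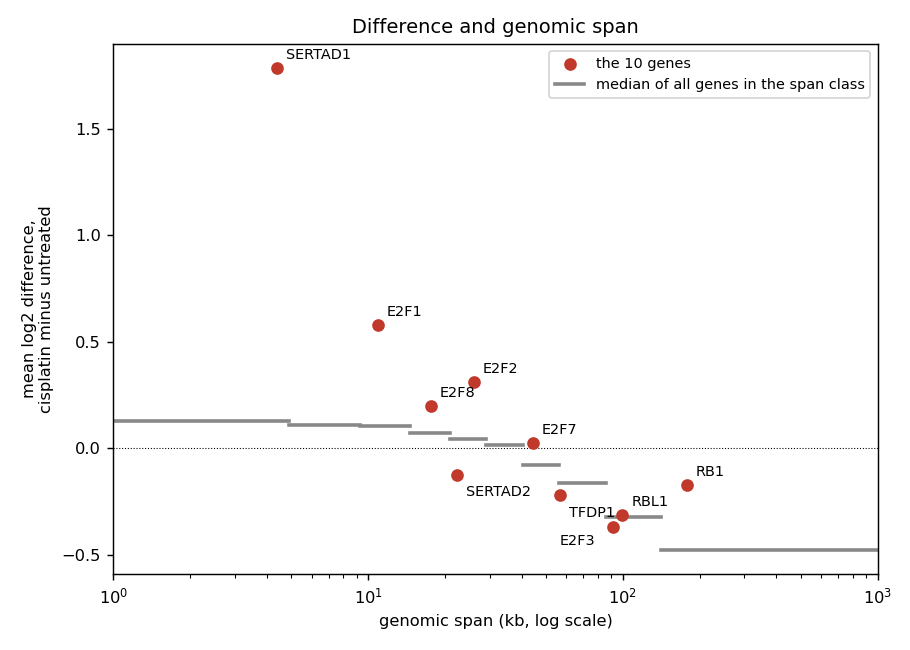
Mean log2 difference, cisplatin minus untreated (y axis), against genomic span in kb (x axis, log scale) for the 10 genes, with grey bars at the median of all genes in each class of span. By the brightest probe set, which is plotted, E2F3, RBL1 and TFDP1 lie close to the bars (over all probe sets RBL1 was at -0.80 and TFDP1 at -0.10), SERTAD1 and E2F1 lie above them, and RB1 lies above the bar of the longest genes.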

How the data were processed

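RNA of KYSE140 cells was measured on 3 Affymetrix arrays, 2 of cisplatin and 1 untreated. The values the authors deposited are intensities, 1 per probe set, made with RMA (background correction, normalization and probe summary) per the submitters' processing notes. Its version is not given in the sources used here. They ran from 3.03 to 19645 on a linear scale and were put on the log2 scale with no pseudocount. After 62 control probe sets had been dropped, 54613 remained, of which 41091 had a single gene symbol, 1801 had more than 1 and 11721 had none in the annotation used. Symbols were updated through GRCh38.p14, and the brightest probe set, by mean log2 value, stood for its gene. Cisplatin was compared with untreated in limma 3.58.1 (R 4.3.3), over all genes and over all probe sets, with Benjamini-Hochberg adjustment at 0.05. There were 1 residual and 2.01 prior degrees of freedom (over genes), and the fit assumed the untreated array to vary like the cisplatin pair. Precision is limited by the number of arrays. The size rule asked for a 2-fold difference in both cisplatin arrays. Named genes were the 10 genes, the other family members, the 2 highest and 2 lowest of each pathway list among genes averaging 6 or more on the log2 scale, and the 3 genes nearest to the highest and the lowest of the 10. Genes and lists were chosen with earlier results of these data known. Alternatives were a filter on dim genes, a trended prior, the mean of probe sets, quantile normalization, median centring, a 1.5-fold threshold and each cisplatin array alone.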

Additional observations from a re-analysis of the deposited data

How the results depend on the processing

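The limma count stayed at 0 genes and 0 probe sets under a filter on dim genes, a trended and robust prior, quantile normalization and median centring, and at 0 genes with the mean of all probe sets, while the genes with an unadjusted p under 0.05 numbered 264 to 634. By the size rule 1 of the 10 genes was higher and 0 were lower under every alternative run, including a 1.5-fold threshold and each cisplatin array alone. The 1.5-fold threshold was applied to the brightest probe set only. Over all 4 probe sets RBL1 was at -0.65 in B1 and -0.96 in B2, beyond 1.5-fold lower in both, so its place depended on the probe set. The filter on dim genes tested 10209 genes, where the other gene runs tested 19775. It left out RBL1 (mean log2 value 5.24), so that run could not have counted RBL1 as lower. Of 50 recomputed differences of the 10 genes 48 kept their sign. The exceptions were both of E2F7 (0.02), which was at -0.014 with median centring and ran from -0.16 (without cisplatin replicate 1, that is B2 alone) to 0.21 (B1 alone). Sizes were less stable than signs. Quantile normalization took E2F1 from 0.58 to 0.68, E2F2 from 0.31 to 0.42, E2F3 from -0.37 to -0.29 and RB1 from -0.17 to -0.10. The mean of all probe sets moved RBL1 from -0.31 to -0.80, E2F1 from 0.58 to 0.40 and TFDP1 from -0.22 to -0.10. It could not move SERTAD1 or E2F8, which have 1 probe set each. The 50 differences are not separate checks, since they include each cisplatin array alone. No paired analysis was possible because the untreated group has 1 array. With 1 residual degree of freedom the limma fits had little power, so an unchanged limma count says little about robustness. A limma fit without 1 cisplatin array was not run, since it leaves no residual degrees of freedom. Without detection calls, the dim RBL1 probe sets cannot be told from undetected ones.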
